A study of Mus musculus with 6 samples.

Results

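Orphan, nucleotide and lipid receptors of the G protein-coupled class were examined in group 2 innate lymphoid cells (ILC2), the innate lymphocytes that make type 2 cytokines. The genes were taken by symbol: Gpr followed by a number, or a symbol beginning with P2ry, Adora, Lpar, Hrh, Ffar, Hcar or S1pr, with S1pr1 left out, and at least 1 read in any library. Of 107 genes with such symbols, 20 had no read in any library, which left 87 receptor genes of the 23871 genes with a read. Messenger RNA was sequenced in 3 groups of 2 libraries. The first group was ILC2 sorted from mesenteric lymph nodes (MLN) and kept for 1 week in culture with 3 cytokines, IL-33, IL-25 and IL-7, each at 10 ng/ml, the second was ILC2 taken directly from thymus, and the third was ILC2 taken directly from MLN, called fresh MLN here. All cells came from homozygous Id1 transgenic (Id1tg/tg) mice, in which the proximal promoter of lck drives Id1, which binds and blocks E proteins; the line was made on FVB/N and then crossed onto C57BL/J over no fewer than 10 generations. All 6 libraries carry the transgene, no library without it was analysed here, and per the labels these mice have a block in T cell development. The sort took Lin- Thy1+ ST2+ cells, and about 300000 cells entered each library. Whether the paired libraries in each group are separate animals or cultures is not in the labels, so every p value covers only the spread seen between libraries.

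These receptors are single proteins that cross the membrane and pass the binding of a small ligand to a heterotrimeric G protein. Gs raises cyclic AMP, Gi lowers it, and Gq activates phospholipase C beta. Their ligands are largely local products of tissue and metabolism. ATP, ADP, UTP and UDP-sugars act on P2Y receptors, and adenosine acts on Adora receptors. Sphingosine 1-phosphate and other lysophospholipids act on S1pr, Lpar and several Gpr receptors, and protons on a small family of acid sensors. Oxysterols act on Gpr183, short-chain fatty acids on Ffar2 and Ffar3, and histamine on Hrh receptors. In lymphoid organs the lipid receptors are best known for positioning and egress of cells, and adenosine and proton receptors for restraining or tuning lymphocytes through cyclic AMP. Orphan receptors have no settled ligand.

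Library totals ran from 35280692 to 40578264 counts, and 3 counts in a library equal between 0.0739 and 0.0905 CPM, the normalised read count on library totals scaled by TMM, which is the scale of all levels here. The sorted identity was checked on 10 ILC2 genes, all of which were detected in every library. Their summed CPM was 7551 to 7692 in cultured cells, 7815 to 7925 in thymus and 10118 to 10172 in fresh MLN. Against fresh MLN, 5 were higher and 5 lower in cultured cells (median log2 fold change -0.55). In thymus 2 were higher and 5 lower (-0.25). Gata3, the transcription factor that defines ILC2, had 1034 and 1064 CPM in cultured cells, 648 and 673 CPM in thymus, and 622 and 599 CPM in fresh MLN. Il1rl1, which encodes the sorted marker ST2, had 2289 and 2342 CPM in cultured cells, 1457 and 1444 CPM in thymus, and 1885 and 1818 CPM in fresh MLN. Markers of other cells were also present and moved with the groups. Of these, the summed CPM of 11 macrophage and monocyte markers was 25.7 to 27.9 in cultured cells, 10.2 to 14.5 in thymus and 90.5 to 96.1 in fresh MLN, and that of 8 mast cell, basophil and eosinophil markers was 758 to 1054 in cultured cells, 816 to 832 in thymus and 340 to 383 in fresh MLN. The 7 T cell markers summed to 64.4 to 71.6 CPM in cultured cells, 361 to 388 in thymus and 316 to 323 in fresh MLN; 1 was higher and 4 were lower in cultured cells than in fresh MLN, and 0 were higher and 5 lower than in thymus. The 8 B cell markers summed to 118 to 130 CPM in cultured cells, 74.6 to 81.7 in thymus and 155 to 200 in fresh MLN, most of it from Ighm and Cd79b. Of 5 B cell markers tested, 3 were higher and 1 lower in cultured cells than in fresh MLN, and 1 was higher and 2 were lower in thymus, while Ms4a1 was at 0 in both cultured libraries and Pax5 and Ebf1 in both fresh MLN libraries. The 8 dendritic cell markers summed to 39.7 to 44.4 CPM in cultured cells, 11.6 to 14.1 in thymus and 31.2 to 35.3 in fresh MLN, and of 5 tested 1 was higher and 4 were lower in cultured cells, and likewise in thymus, than in fresh MLN. The part of such cells in the receptor levels was not tested.

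ILC2 carried a broad set of these receptors in every group. At a mean of 1 CPM or more there were 46 receptor genes in cultured cells, 36 in thymus and 35 in fresh MLN, and at 10 CPM or more 28, 23 and 21 in the same order. The 87 genes behind these counts and the sums below include 8 that are not classical receptors or sit in internal membranes. Those 8 summed to 298 CPM in cultured cells, 228 CPM in thymus and 261 CPM in fresh MLN. Summed over the 87 genes, the level was 2511 and 2538 CPM in cultured cells, 2025 and 2134 CPM in thymus, and 2504 and 2699 CPM in fresh MLN. On this scale the cultured and fresh MLN libraries overlapped in the sum while thymus lay below both. That order rests on the TMM factors, 0.895 and 0.894 in cultured cells, 1.074 and 1.066 in thymus, and 1.046 and 1.043 in fresh MLN. On library totals alone the cultured sums lie within the thymus range and below fresh MLN. In sequenced bulk samples fewer cells of a type and less RNA per cell cannot be told apart, here or in any result that follows. Receptors with no read in a group numbered 4 in cultured cells, 11 in thymus and 14 in fresh MLN. At low level were Hrh1, Hrh3, Adora1, Lpar3, P2ry4, Ffar1, Ffar4, Gpr84 and Hcar2, which had at most 7 reads over the libraries of any 1 group and were among the 27 receptor genes left untested for low counts. The plot of levels by library shows receptors with a group mean of 10 CPM or more.

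**Figure D1:**
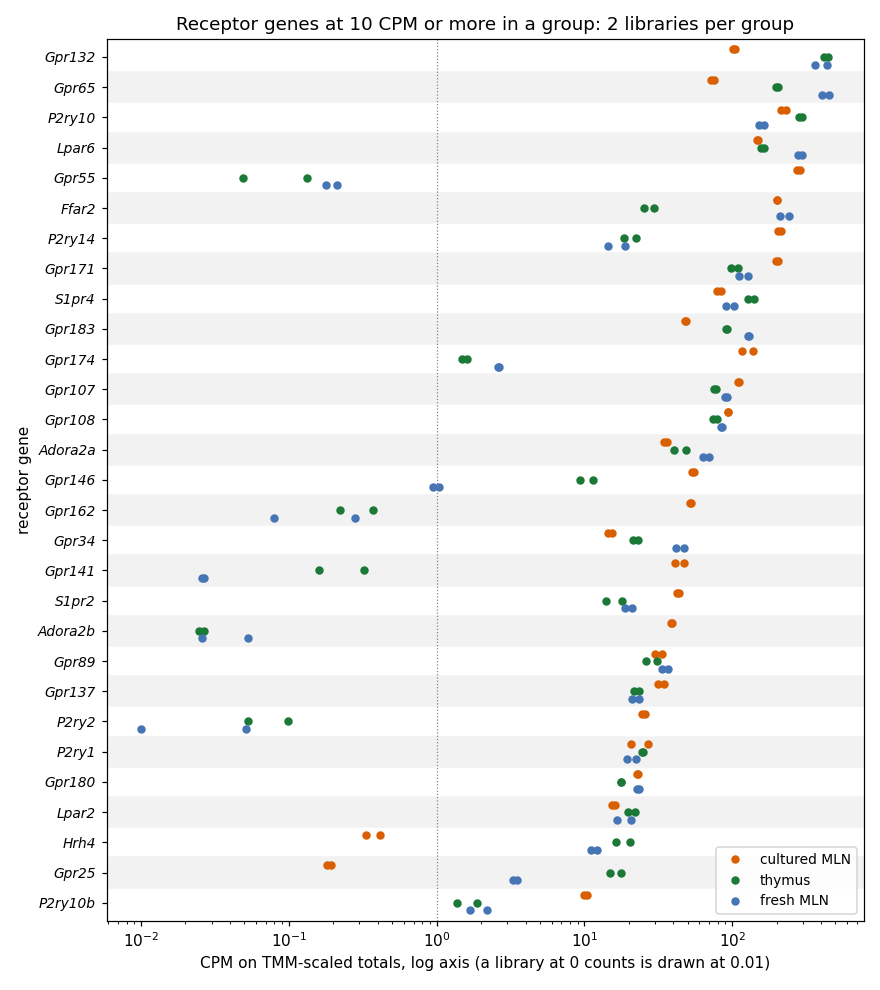
Level of receptor genes with a mean of at least 10 CPM in a group, in CPM on a log axis, with 1 point per library and colours for cultured MLN, thymus and fresh MLN. Gpr55, Gpr162, Gpr141, Adora2b and P2ry2 lie below 1 CPM in the thymus and fresh MLN libraries and above 20 CPM in both cultured libraries, and Hrh4 and Gpr25 show the opposite order.

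Levels of different receptors were set beside each other per kilobase of exon, with lengths from a later annotation than the one behind the counts, so the values are approximate. In cultured cells the order was Gpr171 at 90.4 CPM per kb, Gpr55 at 75.6, P2ry10 at 74.8, Ffar2 at 71.7 and Gpr132 at 37.8. Thymus was led by Gpr132 at 159 CPM per kb, followed by Gpr65 and P2ry10 at 97.6 each, S1pr4 at 56.6 and Gpr171 at 46.8. Fresh MLN was led by Gpr65 at 207 CPM per kb, followed by Gpr132 at 147, Ffar2 at 81.6, Lpar6 and Gpr171 at 53.5 each, and P2ry10 at 52.9. Gpr55 and P2ry10 in cultured cells, Gpr65 and P2ry10 in thymus, and Lpar6, Gpr171 and P2ry10 in fresh MLN overlapped between their libraries and so have no order. Of the 5 highest in cultured cells, only Gpr55 was among the 5 highest of neither other group, and Gpr132 was among the 5 highest of all 3 groups.

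**Figure D2:**
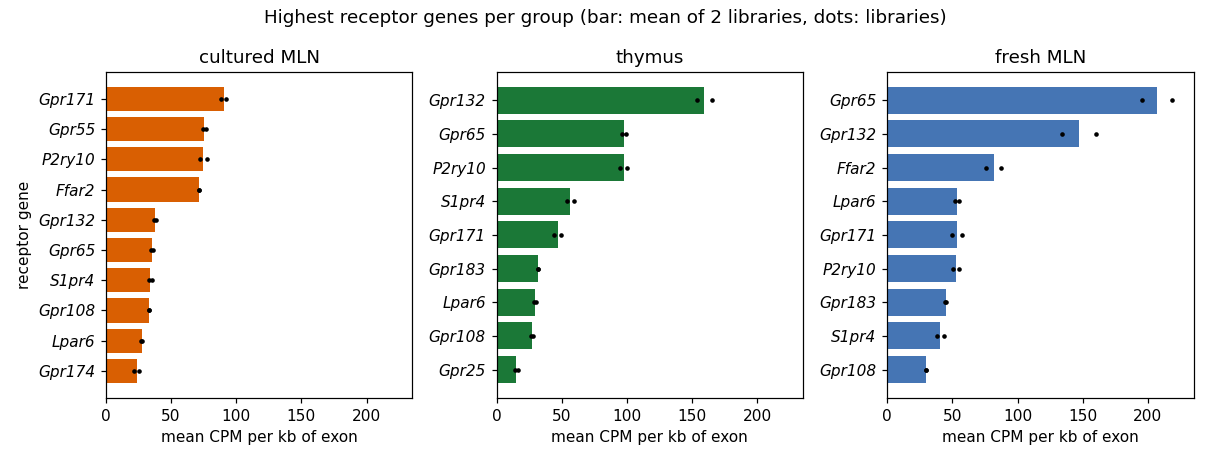
The receptor genes with the highest levels per group, as mean CPM per kilobase of exon (bars start at 0) with 1 dot per library, in panels for cultured MLN, thymus and fresh MLN. Gpr132 heads the thymus panel, with Gpr65 and P2ry10 next and level with each other. Gpr65 and Gpr132 head the fresh MLN panel, and Gpr171, Gpr55, P2ry10 and Ffar2 head the cultured panel.

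The comparison of cultured with fresh MLN sets MLN ILC2 after a week of cytokine culture against MLN ILC2 taken directly. The labels tie no cultured library to a fresh one, so this is a difference between groups. Gpr55, Gpr141, Adora2b, P2ry2 and Gpr162, all below 1 CPM in fresh MLN, stood above 20 CPM in cultured cells, and Gpr174 and P2ry14 were more than 10-fold higher. Gpr65 and Gpr132 of the proton-sensing family, the oxysterol receptor Gpr183, and Hrh4 and Gpr25 were lower. Of 60 receptor genes tested, 31 were higher, 16 were lower and 13 did not pass, where a gene is called at an adjusted p under 0.05 in edgeR's quasi-likelihood test. That is 78.3% of the tested receptors, beside 77.6% of all 16231 genes tested, so a call in itself sets these receptors apart from no other genes. Higher calls made up 39.4% and lower calls 38.1% of all genes. The median log2 fold change of the tested receptors was 0.52, beside -0.01 over all genes. Of the called receptors, 16 were higher by 8-fold or more and 2 were lower by as much, and 14.9% of all genes were called past 8-fold in either direction. The filter on low counts lets a gene in on the reads of 1 group alone. Lpar4, Gpr141, P2ry2 and Adora2b had 0, 2, 2 and 3 reads in fresh MLN and entered through the cultured libraries. Gpr55, Lpar1 and Gpr83, with 15, 8 and 2 reads in fresh MLN, entered in the same way, among others. For such receptors a large fold follows from that entry, so the median and the 8-fold counts are not free of the filter.

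The comparison of thymus with fresh MLN sets the organ in which T cells develop against a peripheral lymphoid organ. Among called receptors that reached 1 CPM in either group, S1pr3, Gpr146 and Gpr25 had the highest fold in thymus and Ffar2 the lowest. Of the 60 tested, 12 were higher in thymus, 16 were lower and 32 did not pass. The share called, 46.7% of the tested receptors, stands beside 47.3% of all genes tested, with higher calls at 25.3% and lower calls at 22.0% of all genes. The median log2 fold change of the tested receptors was -0.20, beside 0.00 over all genes. Without thymus replicate 1 the higher calls numbered 8.

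Cultured MLN against thymus differs in organ and in culture at once, so it serves only to order the levels. Of the 60 tested receptors, 35 were higher in cultured cells, 18 were lower and 7 did not pass, which is 88.3% of them beside 72.7% of all genes. Higher calls made up 34.8% and lower calls 37.8% of all genes in this comparison. Here too some receptors entered the test through the cultured libraries alone, such as Adora2b with 2 reads in thymus. With libraries scaled by their totals alone, higher calls fell to 35.1% of the called genes in all, against 47.9% with TMM, and among called receptors to 61.5%, against 66.0%. The 3 comparisons share libraries with each other and are not independent of one another.

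**Figure D3:**
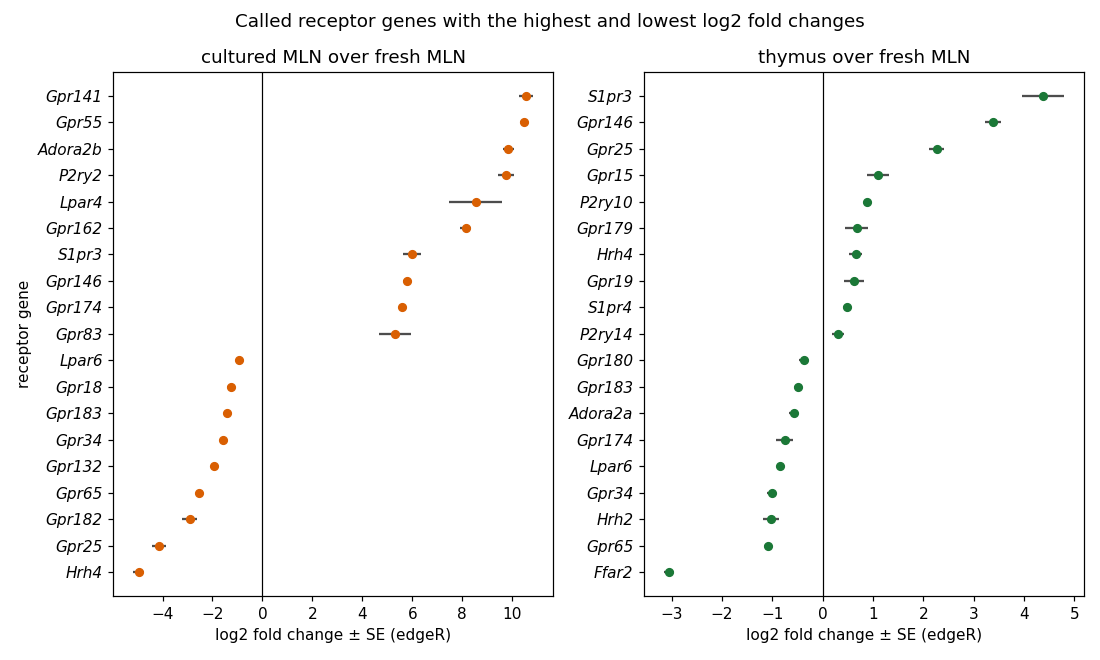
log2 fold change with its SE (edgeR, 2 libraries per group) of the called receptors with a mean of 1 CPM or more in the higher group that had the highest and lowest values, for cultured MLN over fresh MLN and for thymus over fresh MLN. The horizontal axes differ: the cultured panel reaches beyond 10 on the log2 scale and the thymus panel beyond 4.

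Promoter sequences are shown for 5 receptors that carry these differences: Gpr141, Gpr55 and Adora2b, the 3 with the highest fold in culture, S1pr3, with the highest fold in thymus, and Gpr65, the most abundant receptor per length in fresh MLN and lower in both other groups. Each is the RefSeq window from 250 bases before to 50 bases after the start of the gene in GRCm38.p6, which is not the build of the counts, written 5′ to 3′ on the strand of the gene. The windows are chr13:19824208-19824507 (minus strand) for Gpr141, chr1:85961006-85961305 (minus strand) for Gpr55, chr11:62248734-62249033 (plus strand) for Adora2b, chr13:51408368-51408667 (plus strand) for S1pr3 and chr12:98268385-98268684 (plus strand) for Gpr65. Capitals mark matches to the letters CANNTG, the E-box bound by E proteins, which Id1 antagonises, and TTCNNNGAA, the letters of a STAT site.
Gpr141: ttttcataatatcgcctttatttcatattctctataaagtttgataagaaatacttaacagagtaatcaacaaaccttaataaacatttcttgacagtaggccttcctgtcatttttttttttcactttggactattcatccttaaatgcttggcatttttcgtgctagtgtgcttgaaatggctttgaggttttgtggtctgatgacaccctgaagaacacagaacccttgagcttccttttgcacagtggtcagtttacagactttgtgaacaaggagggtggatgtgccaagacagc
Gpr55: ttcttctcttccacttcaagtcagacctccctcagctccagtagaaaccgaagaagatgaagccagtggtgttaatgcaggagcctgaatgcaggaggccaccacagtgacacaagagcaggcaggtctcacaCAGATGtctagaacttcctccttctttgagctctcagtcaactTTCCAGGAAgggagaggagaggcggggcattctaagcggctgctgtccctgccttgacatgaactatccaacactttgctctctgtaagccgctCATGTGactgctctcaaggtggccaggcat
Adora2b: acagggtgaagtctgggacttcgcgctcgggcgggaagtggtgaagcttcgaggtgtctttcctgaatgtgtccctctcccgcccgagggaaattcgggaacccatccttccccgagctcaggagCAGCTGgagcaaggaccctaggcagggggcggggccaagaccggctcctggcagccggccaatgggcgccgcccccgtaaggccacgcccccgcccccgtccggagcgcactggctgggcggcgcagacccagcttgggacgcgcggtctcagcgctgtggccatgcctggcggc
S1pr3: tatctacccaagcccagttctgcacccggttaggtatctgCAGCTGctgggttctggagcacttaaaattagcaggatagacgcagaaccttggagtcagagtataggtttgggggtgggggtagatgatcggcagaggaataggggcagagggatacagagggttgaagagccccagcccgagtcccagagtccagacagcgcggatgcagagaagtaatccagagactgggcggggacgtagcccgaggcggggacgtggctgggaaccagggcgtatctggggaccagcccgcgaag
Gpr65: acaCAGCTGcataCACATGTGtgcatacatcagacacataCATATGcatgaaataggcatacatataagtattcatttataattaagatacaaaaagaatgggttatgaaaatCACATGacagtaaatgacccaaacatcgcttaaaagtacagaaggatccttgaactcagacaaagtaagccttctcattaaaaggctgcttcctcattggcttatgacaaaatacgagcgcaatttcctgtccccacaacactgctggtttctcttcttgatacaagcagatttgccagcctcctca
The nearest start of the gene in GENCODE M21 is the same base for Gpr141, Adora2b and Gpr65, and lies 48 bases away for Gpr55 and 21 bases away for S1pr3. The letters CANNTG read the same on both strands and occurred 0 times for Gpr141, 2 times for Gpr55, 1 time each for Adora2b and S1pr3, and 5 times for Gpr65, where 2 of the matches overlap each other. Of all 32851 windows of this kind, 72.3% hold CANNTG, so its presence is the usual state. TTCNNNGAA, which also reads the same on both strands, occurred 1 time for Gpr55 and in 8.30% of all windows. The letters AGATAA of a GATA site (both strands, 11.2% of all windows), TGANTCA of an AP-1 site (7.81%) and TGACGTCA of a cyclic AMP response element (1.79%) were in none of the 5 windows. Base composition differed widely, with 37.3% G and C for Gpr141, 38.3% for Gpr65, 52.3% for Gpr55, 59.0% for S1pr3 and 70.0% for Adora2b. CpG pairs numbered 2, 3, 4, 14 and 27 in that order. These matches describe letters only.

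Gpr55, a receptor for lysophosphatidylinositol, had 276 and 287 CPM in cultured cells, 0.0493 and 0.133 CPM in thymus, and 0.180 and 0.212 CPM in fresh MLN. Both cultured libraries stood far above all 4 others. Gpr55 entered the test through the cultured libraries alone, so its large fold is not free of the filter. The fold over fresh MLN, computed from 19554 reads against 15, was 1435 (log2 fold change 10.46 ± 0.14, SE, n = 2 each; adjusted p = 7.2e-15 in edgeR), and the fold over thymus was 3089. Its level in thymus did not differ from fresh MLN past the threshold (adjusted p = 0.13).

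Gpr141, an orphan receptor, had 41 and 47.5 CPM in cultured cells, 0.320 and 0.160 CPM in thymus, and 0.0257 and 0.0266 CPM in fresh MLN. Fresh MLN had 2 reads in all, and the ratio of cultured to fresh MLN was 1699.8 with an exact 95% counting interval of 470 to 14042, which covers counting error only. In edgeR the adjusted p was 7.8e-13. The thymus libraries, with 19 reads, lay between, at 9.30 times fresh MLN with a counting interval of 2.24 to 82.4 (adjusted p = 0.0048, and 0.051 without thymus replicate 1). The near copy Gpr141b averaged 0.400 CPM in cultured cells, 0 in thymus and 0.197 CPM in fresh MLN, and reads of the pair may be split between them.

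Adenosine acts on Gs-coupled Adora2a and Adora2b and on Gi-coupled Adora1 and Adora3. Adora2b, the receptor of lower affinity, had 39.2 and 38.3 CPM in cultured cells, 0.0246 and 0.0266 CPM in thymus, and 0.0257 and 0.0531 CPM in fresh MLN. The counting ratio of cultured to fresh MLN, 2690 reads against 3, was 989 (exact 95% interval 338 to 4799; adjusted p = 3.1e-13). Adora2a moved the other way, with 36.3 and 34.5 CPM in cultured cells, 40.6 and 48.8 CPM in thymus, and 63.0 and 70.1 CPM in fresh MLN. It was lower than in fresh MLN in cultured cells (log2 fold change -0.91 ± 0.09, adjusted p = 1e-06) and in thymus (-0.58 ± 0.09, adjusted p = 0.00021). Its groups did not overlap, and the smaller difference of cultured cells from thymus (-0.33 ± 0.09, adjusted p = 0.0061) missed the threshold without cultured replicate 2 (adjusted p = 0.055) or without thymus replicate 2 (0.072). Cultured cells thus held both Gs-coupled adenosine receptors, and both other groups held Adora2a with Adora2b near 0. Adora3 averaged 5.48 CPM in cultured cells, 0.312 CPM in thymus and 0.314 CPM in fresh MLN, and it shares exon sequence on the same strand with Tmigd3.

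Of the P2Y receptors for nucleotides, 6 were tested: 4 were higher in cultured cells than in fresh MLN and 2 did not pass, where 77.6% of all genes were called and 39.4% were higher. P2ry14, the receptor for UDP-glucose, had 215 and 204 CPM in cultured cells, 18.6 and 22.5 CPM in thymus, and 14.5 and 18.7 CPM in fresh MLN. It was 12.6-fold higher in cultured cells than in fresh MLN (log2 fold change 3.66 ± 0.11, adjusted p = 6e-12) and 10.2-fold higher than in thymus. The thymus and fresh MLN libraries overlapped. Their difference (0.30 ± 0.12, adjusted p = 0.047) missed the threshold without thymus replicate 2 (adjusted p = 0.31), fresh MLN replicate 1 (0.39), or cultured replicate 1 (0.063) or 2 (0.060), and in DESeq2 (0.068). P2ry2, the Gq-coupled receptor for ATP and UTP, had 24.7 and 25.6 CPM in cultured cells, 0.0986 and 0.0532 CPM in thymus, and 0.0514 and 0 CPM in fresh MLN. Its counting ratio of cultured to fresh MLN, from 1746 reads against 2, was 963 (exact 95% interval 266 to 7958; adjusted p = 8.2e-12). P2ry1, the Gq-coupled ADP receptor, stayed within 26.8 and 20.7 CPM in cultured cells, 24.4 and 24.8 CPM in thymus, and 22.3 and 19.3 CPM in fresh MLN, with no call in any comparison. Calls appeared under single settings: cultured against fresh MLN (adjusted p = 0.16) without cultured replicate 2 (0.013), thymus against fresh MLN with no filter (0.038) or a replicate block (0.045), and cultured MLN against thymus with library totals alone (0.027). P2ry12, the Gi-coupled ADP receptor of platelets and microglia, averaged 2.42 CPM in cultured cells, 0.0882 CPM in thymus and 0.275 CPM in fresh MLN. P2ry6 averaged 0.536, 0.0522 and 0.105 CPM and P2ry13 0.476, 0.269 and 0.633 CPM in the same order of groups. The class summed to 262 CPM in cultured cells, 45.7 CPM in thymus and 38.5 CPM in fresh MLN.

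**Figure D4:**
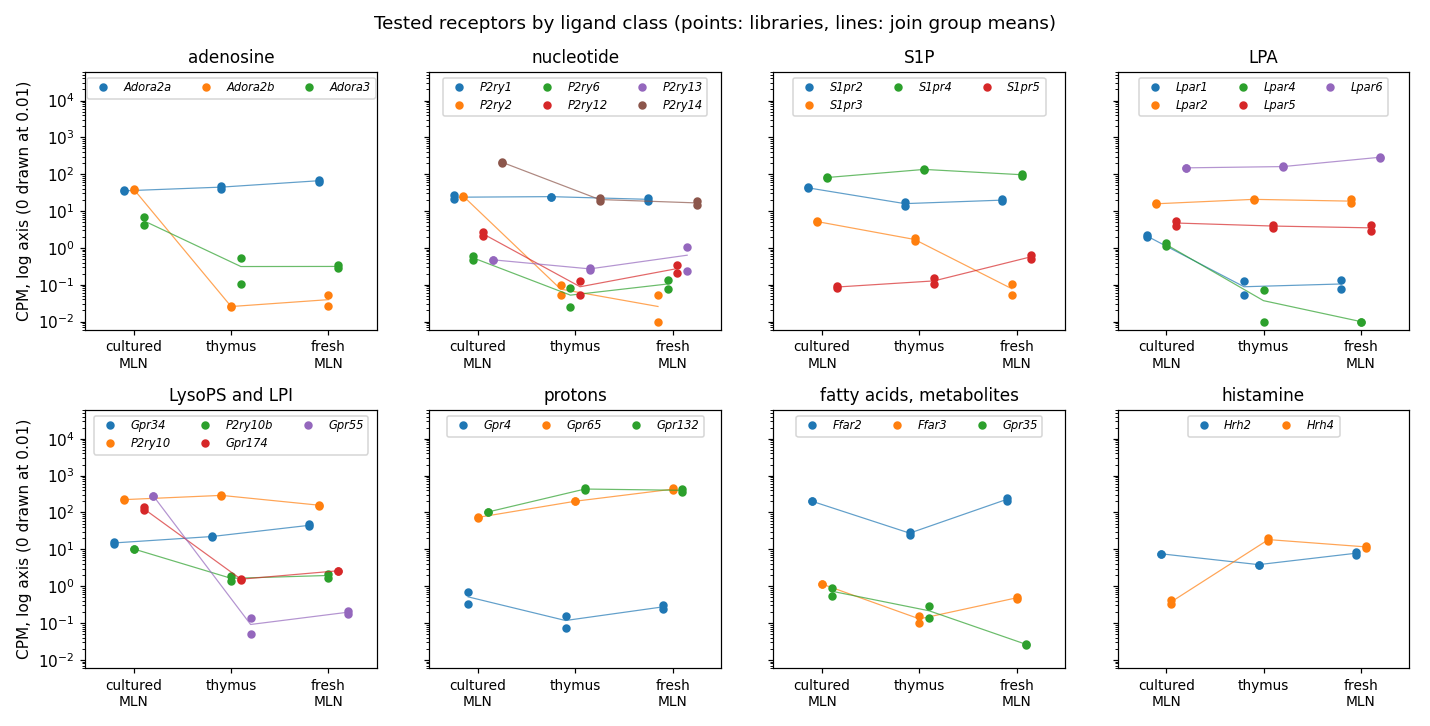
CPM on a log axis of tested receptors of 8 ligand classes in cultured MLN, thymus and fresh MLN, with 1 point per library and lines joining group means; a library without reads is drawn at 0.01. Adora2b, P2ry2, P2ry14, Gpr55 and Gpr174 peak in the cultured group, Gpr65 and Gpr132 are lowest there, and Ffar2 is low in thymus.

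Sphingosine 1-phosphate receptors steer lymphocyte traffic. With S1pr1 left out by the choice of genes, S1pr4 was the most abundant of those examined. It had 83.5 and 79.2 CPM in cultured cells, 129 and 141 CPM in thymus, and 90.6 and 103 CPM in fresh MLN. It was higher in thymus than in fresh MLN (log2 fold change 0.48 ± 0.08, adjusted p = 0.00025) and lower in cultured cells than in fresh MLN (-0.25 ± 0.08, adjusted p = 0.010), the second without a call when cultured replicate 2 (adjusted p = 0.097) or fresh MLN replicate 2 (0.11) was left out. S1pr2, which signals through G12 and G13 and holds cells in place, had 43.7 and 42.1 CPM in cultured cells, 13.9 and 17.9 CPM in thymus, and 18.7 and 20.9 CPM in fresh MLN. Its level was 2.17-fold higher in cultured cells than in fresh MLN (1.12 ± 0.11, adjusted p = 6.5e-07), and the lower level in thymus (-0.32 ± 0.11, adjusted p = 0.036) was not called without thymus replicate 1 (adjusted p = 0.35), fresh MLN replicate 2 (0.19), or either cultured library (0.053 and 0.056). S1pr3, a receptor better known from endothelium and heart, had 5.31 and 5.05 CPM in cultured cells, 1.5 and 1.89 CPM in thymus, and 0.103 and 0.0531 CPM in fresh MLN, with no overlap of any groups. It was 66.4-fold higher in cultured cells (5.99 ± 0.36, adjusted p = 3.9e-09) and 21.8-fold higher in thymus (4.38 ± 0.41, adjusted p = 1.8e-06) than in fresh MLN, which had 6 reads. Cultured cells also exceeded thymus, by 3.05-fold (1.61 ± 0.22, adjusted p = 1.8e-05). S1pr5, the receptor of natural killer cells, averaged 0.0866 CPM in cultured cells, 0.127 CPM in thymus and 0.576 CPM in fresh MLN. The natural killer gene Ncr1 moved in the same order, at 0.0414, 0.885 and 6.94 CPM. Of all 6 natural killer and ILC1 markers, whose sum was 147 to 250 CPM in cultured cells, 43.3 to 47.7 CPM in thymus and 65.9 to 71.4 CPM in fresh MLN, 4 were lower and 2 higher in cultured cells than in fresh MLN, 5 were lower in thymus, and Klrb1c was at 0 in cultured cells. The part of such cells in the S1pr5 level was not tested.

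Receptors for lysophosphatidic acid were led by Lpar6, with 151 and 147 CPM in cultured cells, 157 and 165 CPM in thymus, and 297 and 281 CPM in fresh MLN. Fresh MLN stood apart and the other groups lay close together. Lpar6 was lower than in fresh MLN by 1.94-fold in cultured cells (log2 fold change -0.96 ± 0.07, adjusted p = 1.9e-08) and by 1.79-fold in thymus (-0.84 ± 0.07, adjusted p = 3.4e-07). Cultured cells and thymus did not differ past the threshold (-0.11 ± 0.07, adjusted p = 0.14), though the difference was -0.37 with library totals alone (adjusted p = 0.0002). Lpar2 averaged 15.8 CPM in cultured cells, 20.8 CPM in thymus and 18.6 CPM in fresh MLN, and Lpar5 4.74, 3.92 and 3.50 CPM. Lpar1 averaged 2.11, 0.0882 and 0.105 CPM in that order. Lpar4 had 1.12 and 1.35 CPM in cultured cells, 0.0739 and 0 CPM in thymus, and no read in fresh MLN, so that cultured cells were at least 31.6-fold higher by a floor of 3 reads over the group (adjusted p = 1e-05).

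Lysophosphatidylserine has a receptor group of its own, with P2ry10, Gpr174 and Gpr34. P2ry10 was abundant in all groups, at 215 and 231 CPM in cultured cells, 283 and 299 CPM in thymus, and 151 and 164 CPM in fresh MLN. It was higher than in fresh MLN in cultured cells (log2 fold change 0.50 ± 0.07, adjusted p = 2.5e-05) and in thymus (0.88 ± 0.07, adjusted p = 4.7e-07). Gpr174, a Gs-coupled receptor of lymphocytes, had 116 and 138 CPM in cultured cells, 1.60 and 1.49 CPM in thymus, and 2.60 and 2.63 CPM in fresh MLN. The fold over fresh MLN was 48.7 in cultured cells (5.61 ± 0.12, adjusted p = 1.4e-13), and thymus was lower than fresh MLN (-0.75 ± 0.17, adjusted p = 0.0032). P2ry10b, a close copy of P2ry10 with which reads may be split, had 10.0 and 10.4 CPM in cultured cells, 1.87 and 1.38 CPM in thymus, and 1.70 and 2.20 CPM in fresh MLN. It was 5.23-fold higher in cultured cells than in fresh MLN (2.39 ± 0.19, adjusted p = 9.8e-08). Gpr34 ran the other way, with 14.4 and 15.5 CPM in cultured cells, 21.5 and 22.9 CPM in thymus, and 47.5 and 41.9 CPM in fresh MLN. It was lower than in fresh MLN by 3.0-fold in cultured cells (-1.58 ± 0.09, adjusted p = 3.4e-09) and by 2.01-fold in thymus (-1.01 ± 0.09, adjusted p = 1e-06). Gpr34 is also known from macrophages and microglia. Of the 9 macrophage and monocyte markers tested, 6 were lower and 3 higher in cultured cells than in fresh MLN, and 4 were lower and 0 higher in thymus; Cybb had 0.0715 CPM in cultured cells, 0.619 CPM in thymus and 69.5 CPM in fresh MLN, and Cd14 was at 0 in both thymus libraries. The part of such cells in the Gpr34 level was not tested.

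Acid sensors couple extracellular protons to G proteins. Gpr65, a Gs-coupled proton sensor of lymphocytes, had 71.8 and 75.3 CPM in cultured cells, 205 and 199 CPM in thymus, and 405 and 453 CPM in fresh MLN. It was lower than in fresh MLN by 5.83-fold in cultured cells (log2 fold change -2.54 ± 0.08, adjusted p = 4e-12) and by 2.12-fold in thymus (-1.09 ± 0.07, adjusted p = 7e-08), so its 3 groups were all apart. Gpr132, which responds to oxidised fatty acids and lysophospholipids more than to protons, had 101 and 105 CPM in cultured cells, 417 and 448 CPM in thymus, and 364 and 435 CPM in fresh MLN. The cultured libraries were 3.89-fold lower than fresh MLN (-1.96 ± 0.09, adjusted p = 2.3e-10), while thymus and fresh MLN overlapped (0.12 ± 0.08, adjusted p = 0.28, and 0.037 without fresh MLN replicate 2). Gpr4, the endothelial member of the family, averaged 0.511 CPM in cultured cells, 0.117 CPM in thymus and 0.274 CPM in fresh MLN.

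Gpr183, or EBI2, guides lymphocytes along oxysterol gradients in lymphoid organs. It had 48.5 and 48.3 CPM in cultured cells, 92.0 and 90.8 CPM in thymus, and 128 and 130 CPM in fresh MLN. The 2 libraries of each group lay close together and the groups far apart, with cultured cells 2.67-fold (log2 fold change -1.42 ± 0.06, adjusted p = 2e-10) and thymus 1.41-fold (-0.50 ± 0.06, adjusted p = 2.2e-05) lower than fresh MLN. Its neighbour Gpr18, for which N-arachidonoyl glycine has been proposed as a ligand, had 2.32 and 2.56 CPM in cultured cells, 6.68 and 6.86 CPM in thymus, and 5.42 and 6.32 CPM in fresh MLN. It was lower in cultured cells than in fresh MLN (-1.26 ± 0.17, adjusted p = 1.7e-05), and thymus did not differ from fresh MLN past the threshold (adjusted p = 0.30).

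Ffar2, the Gi- and Gq-coupled receptor for acetate and other short-chain fatty acids, set thymus apart from both MLN groups. It had 200 CPM in each of the cultured libraries, 25.2 and 29.8 CPM in thymus, and 211 and 244 CPM in fresh MLN. Thymus was 8.29-fold lower than fresh MLN (log2 fold change -3.05 ± 0.10, adjusted p = 4.5e-11), and cultured cells were 7.28-fold higher than thymus (2.86 ± 0.09, adjusted p = 1.5e-11). Cultured and fresh MLN were not called different (-0.19 ± 0.09, adjusted p = 0.060), although their libraries did not overlap. The lower level in culture passed in edgeR with library totals alone (-0.41, adjusted p = 0.00057) or upper-quartile scaling (0.036). It also passed with no filter (0.020), a filter at 5 CPM (0.049) or protein-coding genes only (0.025). A replicate block (0.024) and the fit to the 2 groups (0.026) gave the call as well. The log2 fold change was -0.29 without fresh MLN replicate 1 and -0.19 without thymus replicate 1 or 2. Ffar3 averaged 1.14 CPM in cultured cells, 0.129 CPM in thymus and 0.483 CPM in fresh MLN, and Gpr35, a receptor of kynurenic acid and other metabolites, 0.728, 0.214 and 0.0261 CPM.

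Hrh4, the histamine receptor of leukocyte chemotaxis, was low in culture. It had 0.332 and 0.414 CPM in cultured cells, 16.4 and 20.3 CPM in thymus, and 11.1 and 12.2 CPM in fresh MLN. Cultured cells were 31.2-fold lower than fresh MLN (log2 fold change -4.95 ± 0.22, adjusted p = 1.8e-10), and thymus was 1.58-fold higher (0.66 ± 0.13, adjusted p = 0.0011). The Gs-coupled Hrh2 had 7.51 and 7.55 CPM in cultured cells, 3.84 and 3.83 CPM in thymus, and 7.09 and 8.55 CPM in fresh MLN. It was lower in thymus than in fresh MLN (-1.03 ± 0.15, adjusted p = 0.00012), and the cultured libraries fell within the fresh MLN range. Hdc, the enzyme that makes histamine, ran opposite to Hrh4 in culture, with 179 and 120 CPM in cultured cells, 4.02 and 4.12 CPM in thymus, and 1.16 and 1.25 CPM in fresh MLN (cultured over fresh MLN 6.96 ± 0.21, adjusted p = 3.6e-12). Mcpt8, a basophil protease, had 588 and 866 CPM in cultured cells and under 0.3 CPM in every other library. Of the 4 tested markers of mast cells, basophils and eosinophils, 1 was higher and 2 were lower in cultured cells than in fresh MLN, and 3 were higher and 0 lower in thymus; Siglecf was at 0 in cultured and fresh MLN, and Cpa3 averaged 0.10 CPM in cultured cells, 119 CPM in thymus and 26.1 CPM in fresh MLN. The part of such cells in the histamine receptor levels was not tested.

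Among receptors without a settled ligand, Gpr171 was the most abundant in each group. It had 206 and 197 CPM in cultured cells, 98.8 and 110 CPM in thymus, and 111 and 127 CPM in fresh MLN, and was 1.69-fold higher in cultured cells than in fresh MLN (log2 fold change 0.76 ± 0.08, adjusted p = 1.3e-06). The lower level in thymus, -0.19 ± 0.08, missed the threshold (adjusted p = 0.065) but passed it in 9 alternatives: without thymus replicate 2 (0.032) or fresh MLN replicate 1 (0.020), with RLE (0.038) or upper-quartile scaling (0.044), with no filter (0.046), a filter at 5 CPM (0.048) or protein-coding genes only (0.043), with a replicate block (0.038), and in DESeq2 (0.042). The direction of this small difference was the same in all 9. Gpr162 had 53.0 and 52.0 CPM in cultured cells, 0.222 and 0.372 CPM in thymus, and 0.283 and 0.0797 CPM in fresh MLN, a 290-fold higher level in cultured cells than in fresh MLN (8.14 ± 0.21, adjusted p = 1.1e-12). Gpr146, studied in the liver for its part in cholesterol metabolism, had 53.3 and 55.2 CPM in cultured cells, 11.5 and 9.28 CPM in thymus, and 0.951 and 1.04 CPM in fresh MLN. It was thus stepwise apart in the 3 groups, 54.6-fold (5.77 ± 0.14, adjusted p = 6.9e-13) and 10.5-fold (3.38 ± 0.16, adjusted p = 2.1e-09) above fresh MLN. Gpr83 had 1.15 and 1.19 CPM in cultured cells, 0 and 0.0266 CPM in thymus, and 0.0257 and 0.0266 CPM in fresh MLN, with a counting ratio of cultured to fresh MLN of 44.7 (exact 95% interval 12 to 375).

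Gpr25 showed the opposite pattern. It had 0.181 and 0.193 CPM in cultured cells, 14.8 and 17.8 CPM in thymus, and 3.52 and 3.27 CPM in fresh MLN. Thymus was 4.81-fold higher than fresh MLN (log2 fold change 2.26 ± 0.15, adjusted p = 7.6e-08), cultured cells were 18.1-fold lower (-4.16 ± 0.28, adjusted p = 1.7e-08), and cultured cells were 87.3-fold lower than thymus. Gpr15, a homing receptor of the gut for which a peptide ligand is known, had 5.97 and 7.11 CPM in cultured cells, 3.20 and 2.95 CPM in thymus, and 1.64 and 1.22 CPM in fresh MLN. Its level was 4.57-fold (2.19 ± 0.21, adjusted p = 4.9e-07) and 2.15-fold (1.10 ± 0.22, adjusted p = 0.0012) above fresh MLN in cultured cells and in thymus. Gpr182, a scavenger receptor of chemokines in endothelium, had 0.845 and 0.386 CPM in cultured cells, 3.20 and 4.12 CPM in thymus, and 4.34 and 4.83 CPM in fresh MLN, and was 7.46-fold lower in cultured cells than in fresh MLN (-2.91 ± 0.30, adjusted p = 9.8e-07). Of 7 stromal and endothelial markers, whose sum was 163 CPM in each cultured library, 187 to 194 CPM in thymus and 146 to 154 CPM in fresh MLN, 3 were tested, and 2 were higher and 1 lower in cultured cells than in fresh MLN (median log2 fold change 0.55). The endothelial Cdh5 and Kdr were at 0 in both cultured libraries, and the markers' part in the Gpr182 level was not tested. Gpr179 averaged 6.58 CPM in cultured cells, 3.75 CPM in thymus and 2.34 CPM in fresh MLN, and Gpr19 3.24, 5.11 and 3.33 CPM. Their higher calls in thymus (adjusted p = 0.025 for Gpr179 and 0.023 for Gpr19) were lost without thymus replicate 1 (adjusted p = 0.12 and 0.053). The call of Gpr179 was also lost without fresh MLN replicate 2 (0.22), and that of Gpr19 without thymus replicate 2 (0.069) or fresh MLN replicate 1 (0.18) and in DESeq2 (0.055).

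Symbols of the Gpr kind also cover 8 proteins that are not classical receptors or that sit in internal membranes. Among these, 5 were higher and 1 was lower in cultured cells than in fresh MLN, beside 77.6% of all genes called. Gpr107, a protein of the Golgi, had 112 and 109 CPM in cultured cells, 78.0 and 75.5 CPM in thymus, and 92.5 and 89.2 CPM in fresh MLN (cultured over fresh MLN 0.28 ± 0.06, adjusted p = 0.0011; 0.06 with library totals alone, adjusted p = 0.41). Gpr108, its relative, had 94.0 and 94.4 CPM in cultured cells, 74.6 and 79.0 CPM in thymus, and 85.7 and 84.4 CPM in fresh MLN, where the difference of cultured cells (0.15 ± 0.06, adjusted p = 0.049) turned to -0.08 with library totals alone and was not called without any 1 of the cultured or fresh MLN libraries. Gpr137, a lysosomal protein, averaged 33.0 CPM in cultured cells, 22.6 CPM in thymus and 22.3 CPM in fresh MLN. Gpr89, an anion channel of the Golgi, averaged 31.8, 28.6 and 35.1 CPM, and Gpr180 22.9, 17.8 and 23.1 CPM in that order.

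Genes that pass on or limit the receptor signal were followed as lists. The counts stand beside 39.4% higher and 38.1% lower of all genes in cultured cells against fresh MLN, and 25.3% higher and 22.0% lower in thymus. Of 14 G alpha subunit genes tested, 10 were higher and 4 lower in cultured cells than in fresh MLN (median log2 fold change 0.86, beside -0.01 over all genes), and 5 were higher and 1 lower in thymus (0.15). Gnai2, the main Gi subunit of lymphocytes, had 949 and 933 CPM in cultured cells, 516 and 558 CPM in thymus, and 322 and 327 CPM in fresh MLN. Gnaq, the Gq subunit, averaged 57.4 CPM in cultured cells, 148 CPM in thymus and 176 CPM in fresh MLN and was lower than in fresh MLN in both. Of 11 G beta and gamma genes, 9 were higher and 0 lower in cultured cells, and 5 were higher and 0 lower in thymus, and Gnb4 averaged 55.7, 22.8 and 7.64 CPM in cultured cells, thymus and fresh MLN. Adenylyl cyclases and effectors of cyclic AMP were divided, with 5 higher and 8 lower of 15 in cultured cells and 6 higher and 5 lower in thymus. Adcy6, a cyclase that Gi inhibits, had 5.76 and 7.25 CPM in cultured cells, 150 and 140 CPM in thymus, and 66.0 and 76.0 CPM in fresh MLN. Crem, a gene induced by cyclic AMP, had 196 and 174 CPM in cultured cells, 97.5 and 106 CPM in thymus, and 19.3 and 23.2 CPM in fresh MLN. Of 10 cyclic AMP phosphodiesterases, 5 were higher and 5 lower in cultured cells, and 2 were higher and 4 lower in thymus. Pde7a averaged 44.9 CPM in cultured cells, 454 CPM in thymus and 726 CPM in fresh MLN. All 3 tested phospholipase C beta genes were lower in thymus, and 2 were lower and 1 higher in cultured cells. Receptor kinases and arrestins counted 1 higher and 2 lower of 7 in cultured cells, and 2 higher and 3 lower in thymus, with Arrb1 at 526, 243 and 247 CPM and Arrb2 at 201, 379 and 451 CPM in cultured cells, thymus and fresh MLN.

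Enzymes that make or remove the ligands were followed in the same way, beside the same shares of all genes: 77.6% called in cultured cells and 47.3% in thymus against fresh MLN. Of 11 enzymes and carriers of extracellular nucleotides and adenosine, 8 were higher and 2 lower in cultured cells than in fresh MLN, and 5 were higher and 2 lower in thymus. Nt5e, or CD73, which makes adenosine from AMP, had 12.2 and 10.5 CPM in cultured cells, 234 and 245 CPM in thymus, and 267 and 277 CPM in fresh MLN. Entpd1, or CD39, which removes ATP and ADP, had 46.6 and 55.6 CPM in cultured cells, 2.59 and 2.93 CPM in thymus, and 1.85 and 1.57 CPM in fresh MLN. The enzymes upstream and downstream in adenosine formation thus stood in opposite order in cultured and fresh MLN. Of 14 lysophospholipid enzymes and carriers, 9 were higher and 3 lower in cultured cells, and 2 were higher and 3 lower in thymus. Enpp2, or autotaxin, which makes lysophosphatidic acid, had 17.8 and 19.2 CPM in cultured cells, 0.148 and 0.0532 CPM in thymus, and 0.0257 and 0 CPM in fresh MLN. Spns2, an exporter of sphingosine 1-phosphate, averaged 3.61 CPM in cultured cells, 1.69 CPM in thymus and 0.118 CPM in fresh MLN. Hsd3b7, the only tested enzyme of the oxysterol list, averaged 21.5, 19.6 and 8.06 CPM and was higher in both than in fresh MLN. Among 5 tested P2X ion channels for ATP, 1 was higher and 3 lower in cultured cells, and 2 were higher and 1 lower in thymus. P2rx7 had 0.694 and 0.634 CPM in cultured cells, 207 and 236 CPM in thymus, and 103 and 122 CPM in fresh MLN, and P2rx1 had 182 and 165 CPM, 0.345 and 0.346 CPM, and 0.0771 and 0.106 CPM in the same order.

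Several of these receptors lie side by side in the genome. In the RefSeq order, 20 of the 87 genes fell into 7 clusters with gaps of at most 200 kb. The calls below stand beside 39.4% higher and 38.1% lower of all genes in cultured cells against fresh MLN. In thymus against fresh MLN these shares were 25.3% and 22.0%. On chromosome 3, Gpr171, P2ry14, P2ry13 and P2ry12 lie within the span of Med12l on the opposite strand. There P2ry14, Gpr171 and P2ry12 were higher in cultured cells than in fresh MLN, by 12.6-, 1.69- and 8.79-fold, and P2ry13 was not called (log2 fold change -0.40 ± 0.57, adjusted p = 0.53). On the X chromosome Lpar4, P2ry10, P2ry10b and Gpr174 are neighbours, and all 4 were higher in cultured cells than in fresh MLN, at levels from 1.23 CPM for Lpar4 to 223 CPM for P2ry10. In thymus P2ry10 was higher and Gpr174 lower than in fresh MLN. Ffar2, Ffar3 and Ffar1 adjoin on chromosome 7: Ffar2 and Ffar3 were both lower in thymus than in fresh MLN, while in cultured cells Ffar3 was 2.36-fold higher and Ffar2 was not called. Gpr18 and Gpr183, within Ubac2 on chromosome 14, were both lower in cultured cells. No test of whether neighbours change together was made.

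**Figure D5:**
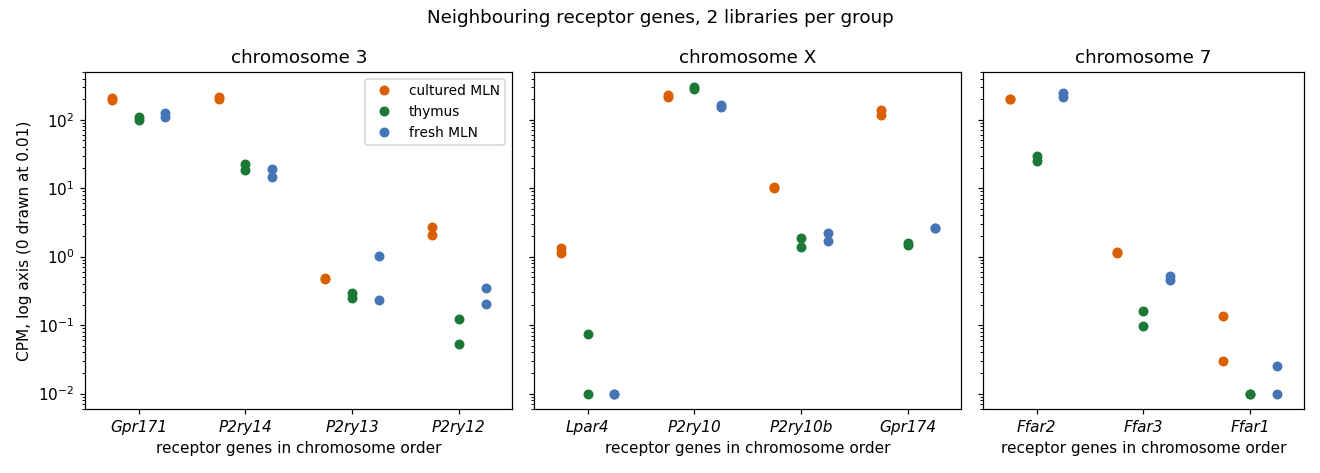
CPM on a log axis of neighbouring receptor genes in chromosome order on chromosomes 3, X and 7, with 1 point per library for cultured MLN, thymus and fresh MLN; a library without reads is drawn at 0.01. P2ry14 and Gpr174 are far higher in the cultured libraries, while Ffar2 separates thymus from both MLN groups.

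Overlapping genes limit some of these counts, since the strand setting of the counting is not given in the sources used here. In GENCODE M21, exons overlap an exon of a gene on the opposite strand for Lpar6 (Rb1), Gpr55 (4933407L21Rik), Gpr137 (Bad), Gpr15 (Cpox), Gpr89 (Pdzk1), Gpr182 (Zbtb39) and, with antisense RNA genes, Gpr25, Gpr65, P2ry1, Hrh2, Gpr19 and Gpr107. Shorter overlaps of this kind were found for S1pr3 (Gm32834), S1pr5 (Gm48303) and P2ry12 (Med12l), at 45, 51 and 9 bases. Reads of such pairs could not be told apart if strand was not used.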

How the data were processed

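The deposited files hold raw counts per Ensembl gene, 1 file a library, not normalized by the authors; per the submitters' processing notes HTSeq 0.5.3p9 and the builds mm9 and NCBIM37 were used, and per the labels the library kit was a stranded mRNA kit. No aligner, annotation release or strand setting is given in the sources used here. Symbols, exon lengths and overlaps came from GENCODE M21 (32919 of 37991 identifiers matched), and gene order and promoter windows from RefSeq GRCm38.p6; 70 of the 87 receptors had a window and 17 are not used there. Protein sequences were not used here, and a few genes are not reported here.

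Genes were filtered with filterByExpr, which left 16231, scaled with TMM and fitted in 6 libraries with 1 mean per group and no block, using the quasi-likelihood F test of edgeR 4.0.16 in R 4.3.3, two-sided, with p-values adjusted by Benjamini-Hochberg across every gene of a comparison. The residual degrees of freedom were 3, the prior 9.54 and the common biological coefficient of variation 0.0662. The SE of a log2 fold change is its size divided by the square root of F; it can be too small where the lower group has few reads. The steps were tested on simulated data. Folds are ratios of mean CPM. A fold against a group with no read uses a floor of 3 reads over the group; against 1 to 3 reads the ratio of counts has an exact 95% interval. Floors and intervals cover counting error only.

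The receptors and gene lists were chosen with earlier results of these data known. The text names receptors with a group mean of at least 10 CPM, in each comparison the 10 called receptors highest and the 10 lowest in log2 fold change that reach 1 CPM in the higher group, tested members of ligand classes, and from each list the most abundant gene and up to 4 called genes with the largest change. Gata3, Il1rl1 and the markers given as 0 were named as marker genes. Libraries of a group differed by more than sampling noise (chi-square per degree of freedom 8.41 to 13.6) and were kept as 2 samples. No permutation test was run, since 2 against 2 cannot give p under 0.05. Alternatives were other scalings, other filters, a replicate block, fits to 2 groups, protein-coding genes alone, a 2-fold null, DESeq2 1.42.0, and leaving out each library.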

Additional observations from a re-analysis of the deposited data

How the results depend on the processing

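With each library left out in turn, receptors higher in cultured than in fresh MLN numbered 31 to 33 and lower 14 to 18, those in thymus against fresh MLN 8 to 12 higher and 14 to 17 lower, and those in cultured MLN against thymus 34 to 36 higher and 15 to 18 lower; a lone library is then assumed to vary like the other groups. A stricter filter on low values (5 CPM or more in 2 libraries) tests fewer genes, and 17 were higher in cultured than in fresh MLN and 20 higher in cultured MLN than in thymus. In a test against a 2-fold change, 3 receptors of thymus were higher and 2 lower than in fresh MLN, and 23 were higher and 8 lower in cultured MLN than in thymus, as that test asks for larger differences. Library totals alone moved the median log2 fold change of all genes by -0.22 in cultured over fresh MLN and by -0.26 in cultured MLN over thymus; there Gpr108 turned to -0.0757 in cultured over fresh MLN. DESeq2 called 30 higher and 16 lower in cultured than in fresh MLN, and for thymus over fresh MLN 10 higher and 17 lower.

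The replicate numbers are shared by the groups, but the labels tie them to no animal or day. Deviations of same-numbered libraries correlated across 10226 genes with r = 0.293 between thymus and fresh MLN, 0.00706 between cultured and fresh MLN, and 0.146 between cultured MLN and thymus; genes are not independent. With a replicate block, 31 receptors were higher and 18 lower in cultured than in fresh MLN, 13 higher and 17 lower for thymus over fresh MLN, and 35 higher and 18 lower in cultured MLN than in thymus.

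Depth limits receptors with few reads: 27 of the 87 could not be tested, and a group at 0 allows a level of up to 3 reads.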
